A study of Mus musculus with 8 samples.

Results

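The 9 genes described here encode the 3 TGF-beta ligands (Tgfb1, Tgfb2 and Tgfb3), the activin A subunit (Inhba), the type I and type II TGF-beta receptors (Tgfbr1 and Tgfbr2), a receptor-activated SMAD (Smad3), an inhibitory SMAD (Smad7) and a secreted matrix protein named for its induction by TGF-beta (Tgfbi). They were taken by symbol from a table of 55450 mouse genes, each matched 1 entry, and all 9 were among the 16911 genes with enough reads to test. The samples were 8 tumours grown from MOC1, a transplantable mouse oral carcinoma cell line, in the flank of immune-competent C57BL/6 mice, so they represent 1 cell line at a site outside the mouth. The flank is given by the design text, while the source name of the samples is tongue carcinoma. Of these, 5 tumours received antisense oligonucleotides (ASOs) against Smyd3, a lysine methyltransferase gene, and 3 tumours received control ASOs. All 8 tumours, controls included, also received anti-PD-1, an antibody that blocks an inhibitory receptor of T cells, and were taken after 32 days. Among the Smyd3 ASO tumours, 2 were marked responder (numbered 1 and 3), 1 carried no mark (numbered 2) and 2 were marked non-responder, named here non-responder 1 and 2 in listed order. No untreated tumour and no tumour without anti-PD-1 was analysed here, and the responder marks follow the outcome of treatment rather than a separate treatment. The labels do not say that each tumour came from a separate mouse, so p-values measure the spread between these tumours.

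TGF-beta ligands are secreted in a latent form bound to their own propeptide and to matrix-anchored binding proteins, and must be released before they bind. The freed ligand brings the type II receptor together with the type I receptor, which phosphorylates SMAD2 and SMAD3; these enter the nucleus with SMAD4 and bind DNA with partner factors, while SMAD7 is induced by the pathway and blocks the type I receptor. In carcinomas the pathway is known for restraining growth of epithelial cells, for driving matrix deposition by fibroblasts, and for keeping T cells out of tumours or inactive within them.

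The promoters of the receptor genes are shown because the receptor pair held both the gene with the smallest p-value between the arms and its partner, which did not separate them. The stretches run 5′ to 3′ on the gene's own strand, from 250 bases before to 50 bases after the RefSeq transcript start (RefSeq, GRCm38.p6). Capitals mark matches, on either strand, to a SMAD box (CAGAC), an AP-1 site (TGANTCA) or a GC box (GGGCGG).
Tgfbr2, chr9:116175314-116175613, minus strand: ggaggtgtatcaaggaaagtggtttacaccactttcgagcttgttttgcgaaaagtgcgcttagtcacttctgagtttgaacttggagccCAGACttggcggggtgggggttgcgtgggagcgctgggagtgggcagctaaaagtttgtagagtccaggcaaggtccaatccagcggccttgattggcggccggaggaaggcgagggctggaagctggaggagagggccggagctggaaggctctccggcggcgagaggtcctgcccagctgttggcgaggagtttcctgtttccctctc
Tgfbr1, chr4:47352972-47353271, plus strand: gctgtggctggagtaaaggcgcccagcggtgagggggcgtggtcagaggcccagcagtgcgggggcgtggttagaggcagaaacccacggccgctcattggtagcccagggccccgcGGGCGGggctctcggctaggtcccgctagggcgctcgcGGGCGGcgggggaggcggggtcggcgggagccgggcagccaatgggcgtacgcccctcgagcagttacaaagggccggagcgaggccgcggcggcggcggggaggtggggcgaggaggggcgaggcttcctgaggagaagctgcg
The Tgfbr2 stretch held 1 SMAD box, no AP-1 site and no GC box, at 59% G and C. The Tgfbr1 stretch held 2 GC boxes and neither of the other motifs, at 74.7% G and C. Of 32851 mouse promoters of this length, 49.6% held a SMAD box, 7.81% an AP-1 site and 35.7% a GC box, and the median G and C content was 52.7%. In the GENCODE M21 annotation of GRCm38, Tgfbr2 spans chr9:116084293-116175360 and Tgfbr1 chr4:47353222-47414931, so each stretch covers the start of the first exon and sequence upstream of it. The table held a promoter for 7 of the 9 genes, not for Tgfb3 and Smad7.

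Libraries held 22103853 to 27258700 expected counts, so that 1 CPM (a count scaled to library size, with TMM factors) stood for 21.7 to 27.6 reads. Counts of the 9 genes lay between 305 (Tgfb2, control ASO 3) and 14545 (Tgfbi, control ASO 2), so sampling error was small beside the differences between tumours. Smyd3 itself averaged 6.36 ± 2.4 CPM in Smyd3 ASO tumours and 11.1 ± 0.719 CPM in control ASO tumours (SD, n = 5 and 3), with all 5 tumours below all 3 controls (edgeR adjusted p = 0.246). The epithelial markers, which include keratins Krt5 and Krt14, summed to 21000 to 43600 CPM in Smyd3 ASO tumours and 30800 to 37300 CPM in control ASO tumours. Among markers of other tissues, the muscle and fibroblast sums did not overlap between the arms, while the remaining sums did. The 12 skeletal muscle markers summed to 664 to 11800 CPM in Smyd3 ASO tumours and 32.1 to 93.2 CPM in controls. All 12 were higher in every Smyd3 ASO tumour than in any control, against 5.45% of all genes. The 10 fibroblast markers summed to 4890 to 6400 CPM in Smyd3 ASO tumours and 7400 to 13000 CPM in controls. Of these, 4 were lower in every Smyd3 ASO tumour than in any control, against 5.14% of all genes. Sums for T cell markers were 34.3 to 167 CPM in Smyd3 ASO tumours and 23.8 to 50.3 CPM in controls, for macrophage markers 603 to 1410 and 627 to 1140 CPM, and for endothelial markers 164 to 317 and 200 to 402 CPM. Adipocyte markers summed to 30.5 to 277 CPM in Smyd3 ASO tumours and 17 to 42.6 CPM in controls, hair follicle markers to 28.4 to 434 and 36.7 to 67.9 CPM, and Schwann cell markers to 37.9 to 109 and 52.7 to 58.5 CPM, while the melanocyte genes Tyr and Tyrp1 had no reads in any library. In whole tumour tissue, fewer cells of a type and less RNA per cell cannot be told apart, which holds for every level given here.

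Between the arms, none of the 9 genes passed the test. Tgfbr2 came closest in the fit of all 8 tumours. It stood at 74.2% of the control level in Smyd3 ASO tumours, and was the only one of the 9 whose 5 Smyd3 ASO tumours all lay below all 3 controls. For the ligands, Inhba, Smad7 and Tgfbi the difference between arm means was smaller than the SD of the controls. Ligand genes are described first, then receptors, SMADs and Tgfbi.

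Tgfb1 encodes the ligand isoform made by most cell types, immune cells among them. Its level was 83 and 92.8 CPM in responders 1 and 3, 127 CPM in the unmarked tumour, 95.4 and 116 CPM in non-responders 1 and 2, and 117, 145 and 83.1 CPM in control ASO tumours 1, 2 and 3. The arms overlapped across nearly their whole range: responder 1 and control 3 had the lowest levels and control 2 the highest. The means were 103 ± 18 CPM in Smyd3 ASO tumours and 115 ± 31.2 CPM in controls, a log2 fold change of −0.16 (SE 0.20, edgeR adjusted p = 0.744).

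Tgfb2, an isoform best known from development and from epithelia, had the fewest reads of the 9 genes. Smyd3 ASO tumours had 15 and 12.5 CPM (responders 1 and 3), 21.3 CPM (unmarked) and 26.4 and 15.1 CPM (non-responders 1 and 2), against 13.8, 25.2 and 12.8 CPM in controls 1, 2 and 3. Non-responder 1, control 2 and the unmarked tumour were the highest and the other 5 stood near each other, with no separation of the arms. The fold change was 0.06 (SE 0.30, adjusted p = 0.947), the only one of the 9 above 0.

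Tgfb3 encodes the third isoform, known from palate fusion and from mesenchymal cells. It stood at 125 and 87.4 CPM in responders 1 and 3, 142 CPM in the unmarked tumour and 102 and 142 CPM in the non-responders, against 113, 186 and 106 CPM in controls 1, 2 and 3. Control 2 was again the highest tumour and responder 3 the lowest. The difference of −0.17 on the log2 scale (SE 0.23, adjusted p = 0.765) was within the spread of the controls, whose standard deviation was 44.2 CPM around a mean of 135 CPM. Exons of Tgfb2 and Tgfb3 overlap annotated transcripts of the opposite strand (Gm29491 for Tgfb2, over 2.14% of its exon bases, and Gm37804 and Gm48008 for Tgfb3, over 4.82% and 7.6%). The library kit keeps the strand, but whether the counting used it is not given in the sources used here.

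**Figure D1:**
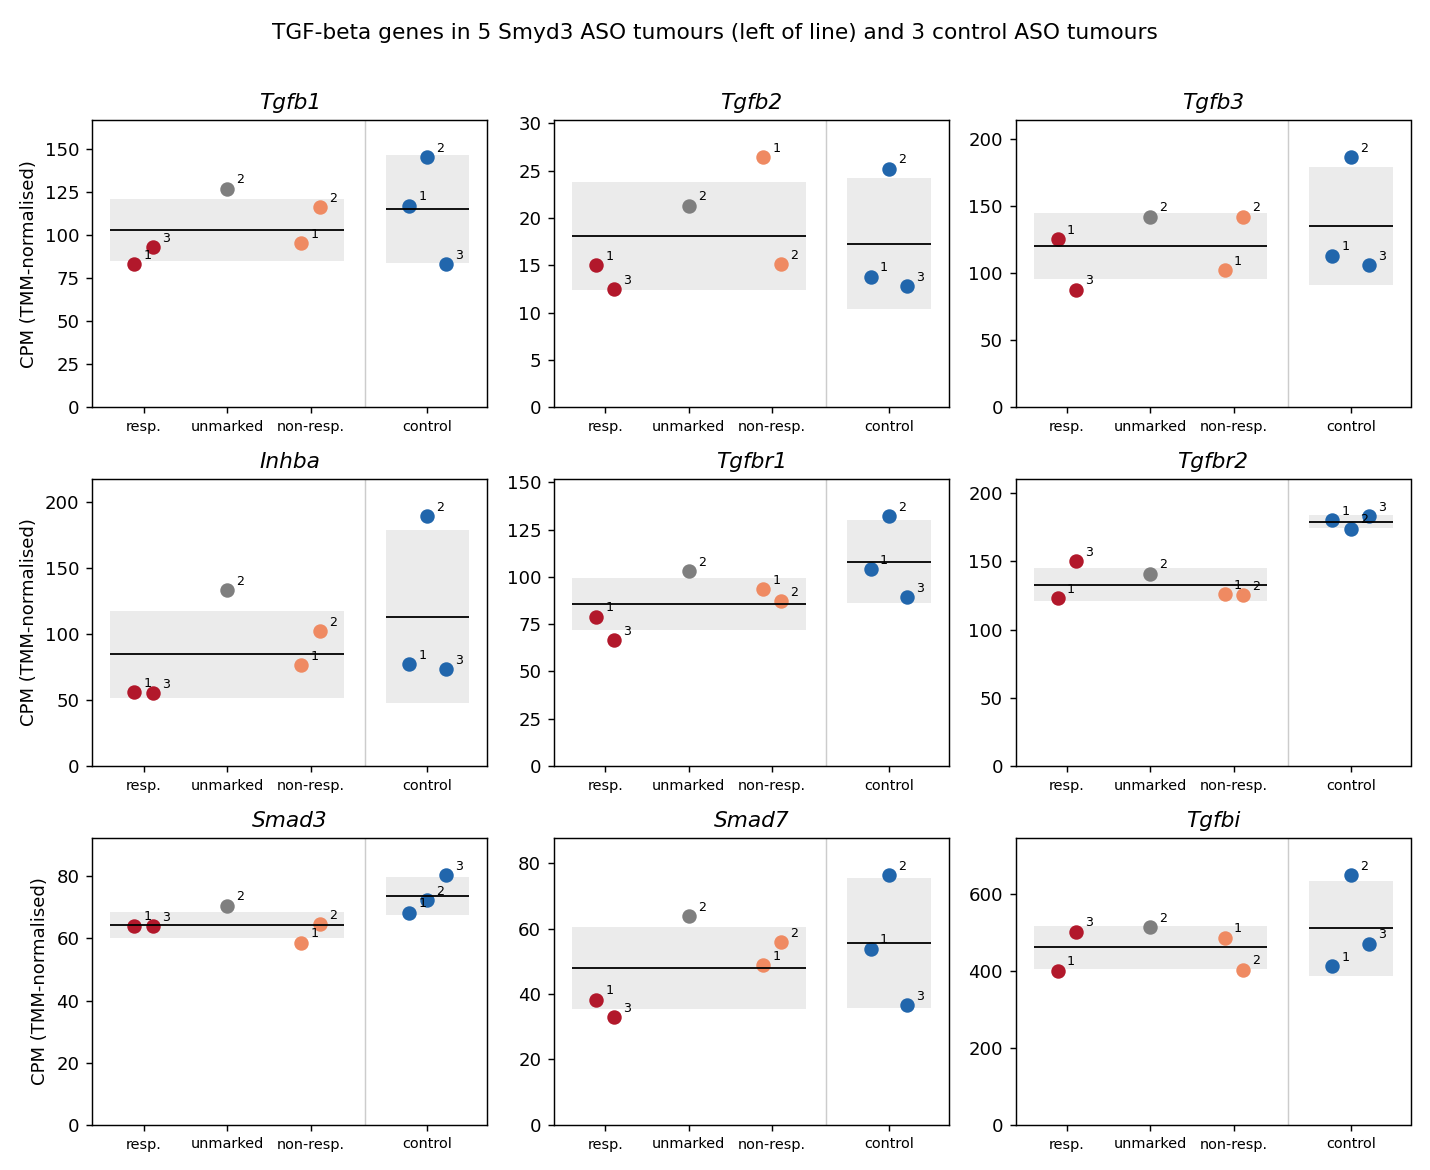
Level of each of the 9 genes (y axis, CPM after TMM scaling, from 0) in the 5 Smyd3 ASO tumours, split into responder, unmarked and non-responder, and in the 3 control ASO tumours to the right of the line; numbers name the tumours, black lines are arm means and grey bands ± 1 SD. Tgfbr2 is the only panel in which every Smyd3 ASO point, at most 150 CPM, lies under every control point, at least 174 CPM.

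Per length, the ligand mix did not separate the arms. With levels divided by the length of all exons (CPM per kb), Tgfb3 made up 59.8 ± 4.26% of the 3 ligand transcripts in Smyd3 ASO tumours and 60.5 ± 3.36% in controls, and Tgfb1 34.8 ± 3.66% and 35 ± 3.74% (SD, n = 5 and 3). Tgfb2 was the minor isoform, at 5.36 ± 1.82% in Smyd3 ASO tumours and 4.47 ± 0.453% in controls. Non-responder 1 had the highest Tgfb2 share, 8.52%, while the other 7 tumours lay between 3.86% and 5.18%. Exact permutation tests of the 3 shares between arms gave two-sided p = 0.929, 0.589 and 0.821 for Tgfb1, Tgfb2 and Tgfb3 (0.929 each after Benjamini-Hochberg adjustment over the 3). Which isoform came first depended on the length used. With the longest coding transcript, which for Tgfb1 is 2175 bases against 5042 bases of all exons, Tgfb1 made up 54.9 ± 4.01% in Smyd3 ASO tumours and 55.2 ± 3.99% in controls, and Tgfb3 40.9 ± 4.26% and 41.3 ± 3.60%.

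**Figure D2:**
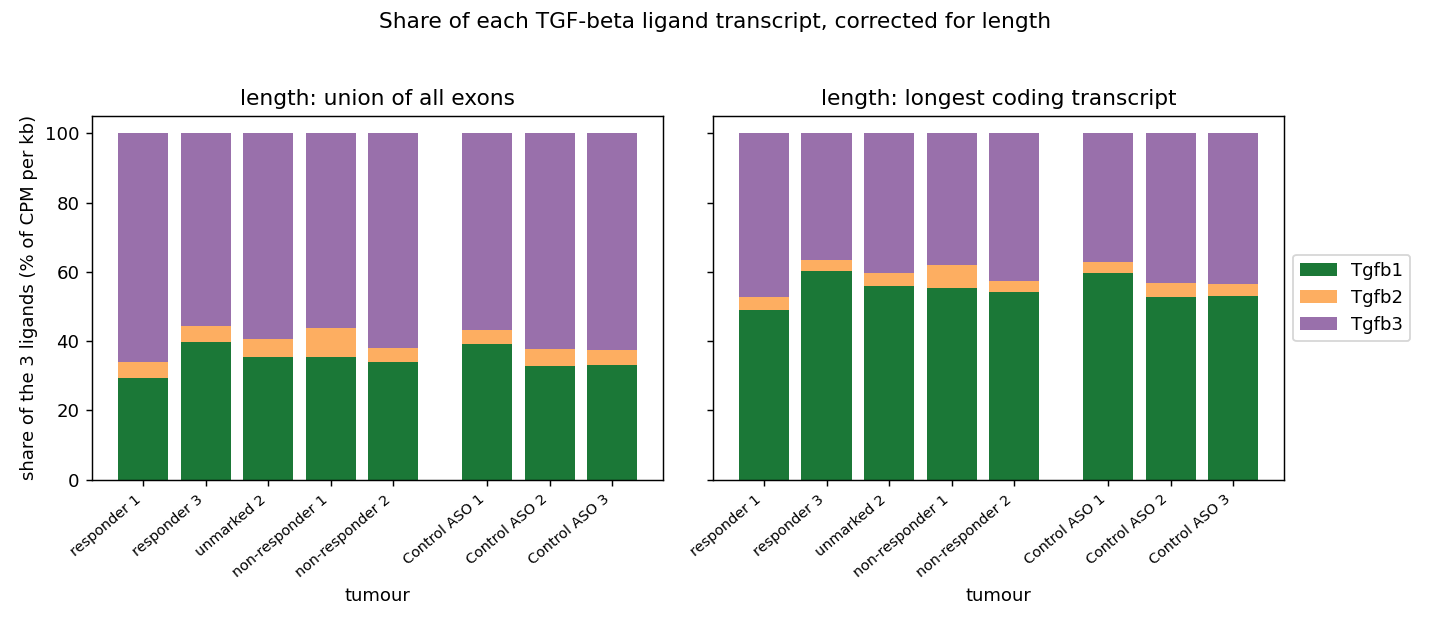
Share of Tgfb1, Tgfb2 and Tgfb3 in their summed level per kb (y axis, percent) in each tumour, with Smyd3 ASO tumours left of the gap and controls right of it, by all exons (left panel) and by the longest coding transcript (right panel). Tgfb2 is the thin band in all 8 tumours, widest in non-responder 1 (8.52% in the left panel), and the bars of both arms look alike within a panel, while Tgfb1 and Tgfb3 change places between panels.

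Inhba, whose product pairs with itself to form activin A, a ligand that also signals through SMAD2 and SMAD3, was the most variable of the 9 genes, with a 3.41-fold span over the 8 tumours. It stood at 56.1 and 55.3 CPM in responders 1 and 3, 133 CPM in the unmarked tumour and 76.2 and 102 CPM in non-responders 1 and 2, against 77.2, 189 and 73.3 CPM in controls 1, 2 and 3. Both responders were below all other tumours, and control 2 was above all others. Between arms the difference was −0.42 (SE 0.39, adjusted p = 0.662), with means of 84.5 ± 33.1 CPM in Smyd3 ASO tumours and 113 ± 65.5 CPM in controls.

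Tgfbr2, the type II receptor that binds ligand first and is needed for signalling by all 3 isoforms, gave the clearest separation. Its level was 123 and 150 CPM in responders 1 and 3, 141 CPM in the unmarked tumour, and 126 and 125 CPM in the non-responders, against 180, 174 and 183 CPM in controls 1, 2 and 3. The highest Smyd3 ASO tumour, responder 3, was below the lowest control, control 2, and the coefficient of variation of the controls was 2.57%. The means were 133 ± 11.9 CPM in Smyd3 ASO tumours and 179 ± 4.61 CPM in controls. The fold change was −0.43 (SE 0.095; unadjusted p = 0.00148), and the edgeR adjusted p over all 16911 genes was 0.101, above the threshold of 0.05. An exact permutation test over the 56 ways to divide 8 tumours into 5 and 3 gave a two-sided p = 0.0179, the smallest it can give, and p = 0.0571 without the unmarked tumour. DESeq2, run as an alternative, placed Tgfbr2 past the threshold (adjusted p = 0.00104), and over all alternatives the adjusted p ran from 0.00104 to 0.248. With any 1 tumour left out, the log2 fold change stayed between −0.49 and −0.41. The fibroblast and muscle marker sums given above also did not overlap between the arms, and their part in the Tgfbr2 difference was not tested. Col1a1, Col1a2, Col3a1 and Postn made up most of the fibroblast sum.

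Tgfbr1, the kinase that the type II receptor activates, did not separate the arms. It stood at 79.0 and 66.4 CPM in responders 1 and 3, 103 CPM in the unmarked tumour and 93.6 and 87.0 CPM in the non-responders, against 104, 132 and 89.3 CPM in controls 1, 2 and 3. The unmarked tumour and non-responder 1 lay above control 3. Means were 85.7 ± 13.8 CPM in Smyd3 ASO tumours and 108 ± 21.9 CPM in controls (log2 fold change −0.34, SE 0.17, adjusted p = 0.372; exact permutation p = 0.125), and without control 2 the log2 fold change was −0.16. The ratio of Tgfbr2 to Tgfbr1 reads was 1.59 ± 0.378 in Smyd3 ASO tumours and 1.70 ± 0.369 in controls, with responder 3 at 2.26 and non-responder 1 at 1.35.

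Smad3, the SMAD that carries most transcriptional responses to TGF-beta into the nucleus, was the steadiest of the 9 genes, with a coefficient of variation of 9.78% over the 8 tumours. It stood at 64.1 and 63.9 CPM in the responders, 70.5 CPM in the unmarked tumour and 58.7 and 64.5 CPM in the non-responders, against 68.3, 72.3 and 80.4 CPM in controls 1, 2 and 3. The unmarked tumour was the 1 Smyd3 ASO tumour that reached the control range. The difference was −0.20 (SE 0.092, edgeR adjusted p = 0.352), with means of 64.3 ± 4.16 CPM in Smyd3 ASO tumours and 73.7 ± 6.15 CPM in controls. An exact permutation test gave a two-sided p = 0.0357 for this single gene, the second smallest of the 9 such tests. Left out in turn, 6 of the 8 tumours (all but control 1 and the unmarked tumour) took it above 0.05, control 3 the farthest (exact permutation p = 0.238).

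Smad7, the inhibitory SMAD that recruits ubiquitin ligases to the receptor, ranged from 33.0 CPM in responder 3 to 76.4 CPM in control 2. Responder 1 had 38.3 CPM, the unmarked tumour 63.8 CPM and non-responders 1 and 2 had 48.9 and 55.9 CPM, while controls 1 and 3 had 53.9 and 36.6 CPM. The arms overlapped, since control 3 lay among the responders (log2 fold change −0.21, SE 0.27, adjusted p = 0.76). Tgfbi, an adhesion protein of the extracellular matrix, was at 401 and 502 CPM in responders 1 and 3, 514 CPM in the unmarked tumour and 486 and 403 CPM in the non-responders, against 413, 649 and 471 CPM in controls 1, 2 and 3. Its arm means of 461 ± 54.9 CPM in Smyd3 ASO tumours and 511 ± 123 CPM in controls differed by less than the control SD (adjusted p = 0.722).

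Set against each other per kb of exon, Tgfbi was the most abundant transcript of the 9 and Tgfb2 the least, by either length. In Smyd3 ASO tumours Tgfbi averaged 122 ± 14.6 CPM per kb, Tgfb3 35.4 ± 7.20, Tgfb1 20.4 ± 3.58 and Tgfbr2 16.2 ± 1.46 CPM per kb, while in controls they averaged 136 ± 32.5, 39.9 ± 13.1, 22.9 ± 6.20 and 21.9 ± 0.563 CPM per kb. Below them Inhba, Tgfbr1, Smad3 and Smad7 stood at 13.2 ± 5.17, 13.1 ± 2.11, 11.6 ± 0.750 and 10.6 ± 2.78 CPM per kb in Smyd3 ASO tumours. The ranges of these last 4 over the 5 Smyd3 ASO tumours overlapped one another. Tgfb2 followed at 3.12 ± 0.985 CPM per kb in Smyd3 ASO tumours and 2.99 ± 1.19 CPM per kb in controls.

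Counted together, 8 of the 9 genes had a log2 fold change below 0 between the arms, with a median of −0.20, while the median over all genes tested was 0.01. None was called at a false discovery rate of 0.05, where edgeR called 0 of all 16911 genes (0%), DESeq2 called 1053, and 15.6% of all genes had an unadjusted p below 0.05. Without non-responder 1 edgeR called 258 genes and without control 1 it called 5, none of them among the 9. Of the 9, Tgfbr2 alone had an unadjusted p below 0.05 in the edgeR fit of all 8 tumours. It was also the 1 of 9 that had all Smyd3 ASO tumours below all controls, a pattern that 5.14% of all genes showed, and none had all above, as 5.45% of all genes did. Control 2 had the highest level of 6 of the 9 genes and was among the top 2 tumours for 8. How often it was highest over all genes was not counted. Without control 2 the log2 fold change was 0.05 for Tgfb1, 0.14 for Tgfb3, 0.18 for Inhba, 0.10 for Smad7 and 0.08 for Tgfbi. These were all above 0, as was Tgfb2 at 0.45. The median of the 9 was then 0.076, with 3 below 0.

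**Figure D3:**
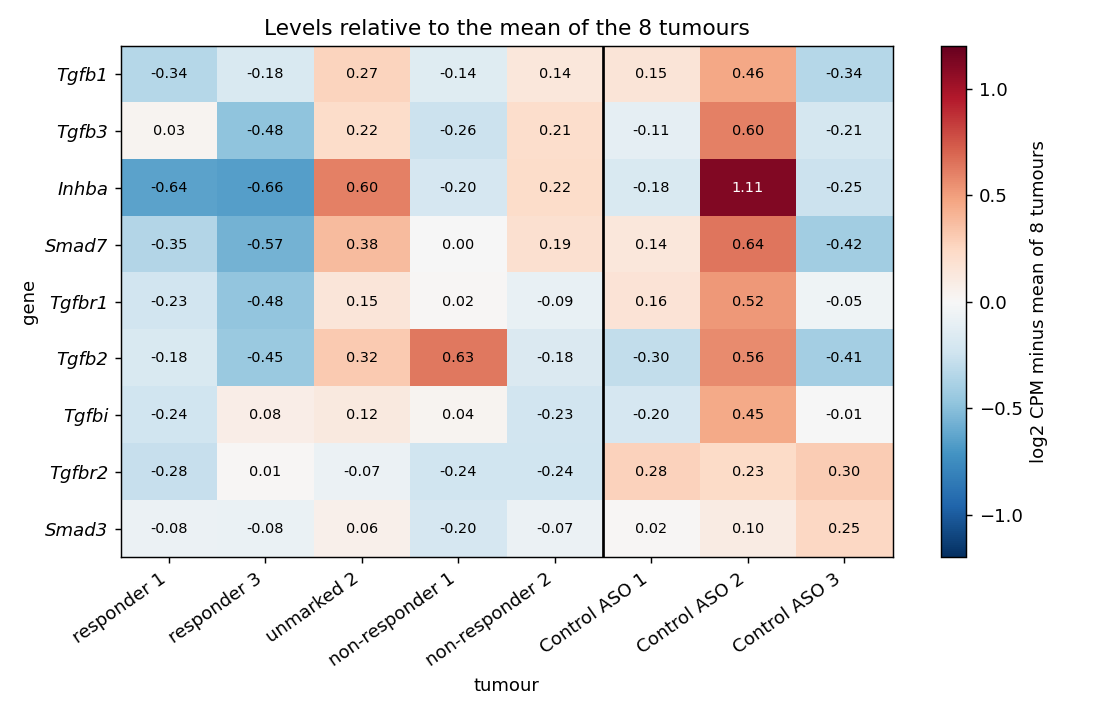
Log2 CPM of each gene (y axis) in each tumour (x axis) minus that gene's mean over the 8 tumours; red is above the mean, blue below, and the black line divides Smyd3 ASO tumours from controls. Control ASO 2 is red in all 9 lines, up to 1.11 for Inhba, responder 3 is blue in 7, and the Tgfbr2 line is the one that changes from at most 0.01 left of the line to at least 0.23 right of it.

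Within the Smyd3 ASO arm, the lowest levels were mostly those of responders. Responder 3 had the lowest level of the 8 tumours for 5 of the 9 genes and responder 1 for 3 (Tgfb1, Tgfbr2 and Tgfbi). How often these tumours were lowest over all genes was not counted. In 5 genes (Tgfb1, Tgfb2, Inhba, Tgfbr1 and Smad7) both responders lay below both non-responders, a pattern shown by 18.9% of all genes. The largest differences, on the log2 scale, were −0.68 for Inhba (SE 0.46, edgeR adjusted p = 0.699), −0.60 for Tgfb2 (SE 0.40, adjusted p = 0.697; −0.14 without non-responder 1 and −0.95 without non-responder 2) and −0.56 for Smad7 (SE 0.31, adjusted p = 0.652). Tgfbr2 went the other way, at 0.12 (SE 0.14, adjusted p = 0.833), and Smad3 and Tgfbi lay at 0.05 and 0.02. No gene of the 9 reached an unadjusted p of 0.05, which 8.49% of all genes did, and edgeR called no gene at all between these groups (0%), while DESeq2 called 225. Without responder 1 edgeR called 21, none of them among the 9. With 2 tumours on each side, a permutation test has 6 arrangements and a smallest p of 0.333, so none is given. Summed epithelial markers were 21000 to 24300 CPM in responders, against 25800 to 43600 CPM in non-responders, and summed muscle markers 2230 to 11800 CPM in responders, against 664 to 991 CPM in non-responders. Responders were also apart for T cell markers (79.3 to 167 CPM, against 34.3 to 66.4 CPM in non-responders), adipocyte markers (63.8 to 277 CPM, against 39.1 to 52.1 CPM in non-responders), endothelial markers (244 to 317 CPM, against 164 to 214 CPM in non-responders), Schwann cell markers (101 to 109 CPM, against 37.9 to 48.6 CPM in non-responders) and hair follicle markers (28.4 to 49.7 CPM, against 115 to 434 CPM in non-responders). These ranges are of sums. Gene by gene, both responders lay above both non-responders in 10 of 12 muscle, 7 of 8 T cell and 6 of 7 adipocyte markers. The same held for 5 of 7 endothelial and 3 of 5 Schwann cell markers. The share of all genes with this pattern was not counted. In 5 of 9 epithelial and 1 of 5 tested hair follicle markers both responders lay below both non-responders, against 18.9% of all genes. The Schwann cell marker Sox10 had 63.2 and 70.3 CPM in responders, against 5.71 and 3.7 CPM in non-responders, while Mbp overlapped. The part of these markers in the differences was not tested.

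Each response group was also set against the same 3 controls, so the following comparisons share those tumours and cannot be read as separate evidence. Responders were below controls in all 9 fold changes, with a median of −0.39, and without control 2 in 7 of 9, with a median of −0.20. Non-responders were below controls in 8 of 9, with a median of −0.20, and Tgfb2 was the exception at 0.26 (SE 0.36, adjusted p = 0.859). Without control 2, 6 of the 9 non-responder fold changes were above 0 and the median was 0.094. Both responders were below all controls for Inhba, Tgfbr1, Tgfbr2 and Smad3 (4 of 9, against 17% of all genes), and both non-responders for Tgfbr2 and Smad3 (2 of 9, against 12.6%).

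Inhba was at −1.02 between responders and controls (SE 0.43, edgeR adjusted p = 0.298; −0.42 without control 2) and −0.34 between non-responders and controls (SE 0.42, adjusted p = 0.837). Tgfbr1 was at −0.58 in responders (SE 0.19, adjusted p = 0.191) and −0.26 in non-responders (SE 0.18, adjusted p = 0.709), and Smad7 at −0.64 and −0.09. Tgfbr2 was nearly as low in either group, at −0.40 in responders (SE 0.13, adjusted p = 0.191) and −0.51 in non-responders (SE 0.13, adjusted p = 0.367). Against controls, edgeR called 1.66% of all genes in responders (1.38% higher and 0.272% lower) and none in non-responders (0%, with 339 called by DESeq2), and no gene of the 9 was among them. The 280 genes called in responders became 0 without control 1, 6 without control 3, 33 without responder 3, 107 without control 2, and 134 and 169 without non-responders 2 and 1. At an unadjusted p below 0.05 stood 3 of the 9 in responders (Inhba, Tgfbr1 and Tgfbr2), against 16.6% of all genes, and 1 in non-responders (Tgfbr2), against 9.24%. DESeq2 put Tgfbr2 past the threshold in non-responders (adjusted p = 0.0422).

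**Figure D4:**
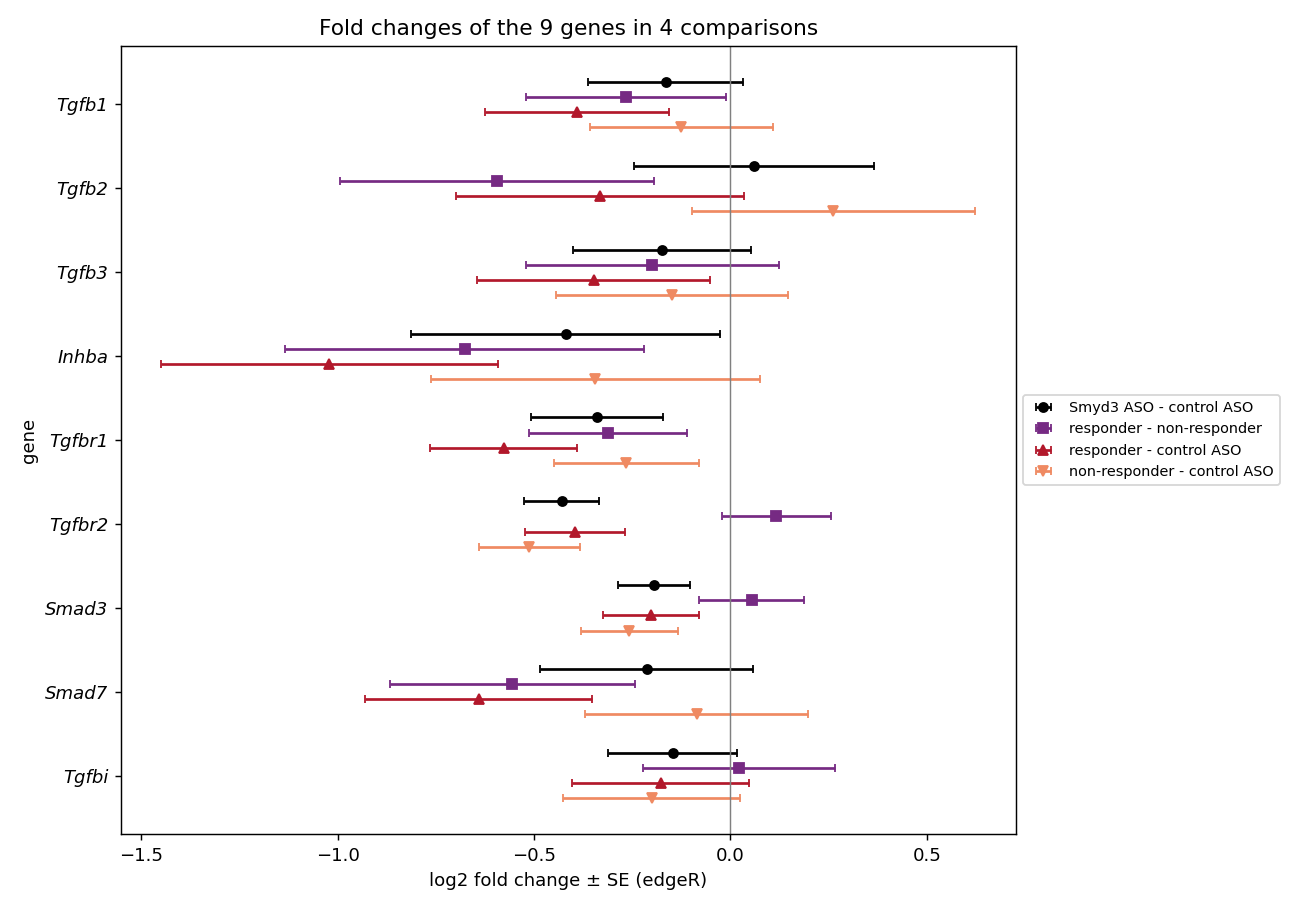
Log2 fold change ± SE from edgeR (x axis) of the 9 genes (y axis) in 4 comparisons, each marked by its own symbol; the 3 comparisons with controls share the control tumours. Tgfbr2 lies near −0.4 to −0.5 in all comparisons with controls and near 0.1 between responders and non-responders, while Inhba, Tgfb2 and Smad7 differ most between the response groups.

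The genes whose levels followed each of the 9 most closely over the 8 tumours were found among 13356 genes, as a description of these 8 libraries. Tgfbr1 ran with Tnc, the matrix protein tenascin C (Pearson r = 0.976, Spearman rho = 0.952). Inhba ran with Wwtr1, a co-activator of the Hippo pathway (r = 0.984), and Spry2, an inhibitor of receptor tyrosine kinase signalling (r = 0.977). Smad7 ran with Dok4, an adaptor of tyrosine kinases (r = 0.994), and Col18a1, a basement membrane collagen (r = 0.961). Tgfb1 ran with Rhbdf1 (r = 0.979) and Gfm2 (r = 0.959), Tgfb2 with Sept11 (r = 0.963) and Pak2 (r = 0.961), and Tgfb3 with Bmpr2, the type II receptor for bone morphogenetic proteins (r = 0.959), and Rnasek (r = 0.952). Tgfbr2 had the least close partners, the kinase Map2k1 (r = 0.939) and the scavenger receptor Colec12 (r = 0.932). Smad3 ran with Xndc1 (r = 0.976) and Armcx5 (r = 0.959), and Tgfbi with Adm2 (r = 0.969) and Hps6 (r = 0.946). Arm, response mark and tissue makeup differ among the tumours and were not separated in these values, and each partner is the highest of many values of r over only 8 points.

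The rest of the pathway was read from 7 lists of 96 genes, of which 89 were tested; Inhbc, Inhbe, Gdf15, Nodal, Lefty2, Acvr1c and Smad9 had too few reads. Between the arms no gene of the lists was called, 24 of 89 had an unadjusted p below 0.05 and a lower level, and 6 had such a p and a higher level (15.6% of all genes in either direction). DESeq2 called 19 of the 89, beside 1053 of all 16911 genes. Without non-responder 1 edgeR called 4 of the list genes (Ltbp4, Postn, Tagln and Loxl2), beside 258 over the whole table. In 18 of 89 genes (20.2%) all Smyd3 ASO tumours lay below all controls, and in 4 (Mstn, Bmp4, Nog and Bambi) above them, against 5.14% and 5.45% of all genes. The median log2 fold change over the 89 was −0.24, with 68 below 0, and −0.15 without control 2, while the median over all genes tested was 0.01.

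Classical target transcripts of TGF-beta made up 10 of these 18. Of 27 targets, 23 had a fold change below 0 (median −0.51), 12 had an unadjusted p below 0.05 with a lower level, and the 10 had all Smyd3 ASO tumours below all controls. Loxl2, an enzyme that crosslinks collagen, had the smallest p: 61.8 and 56.9 CPM in responders 1 and 3, 69.6 CPM in the unmarked tumour and 71.5 and 44.8 CPM in the non-responders, against 130, 205 and 129 CPM in controls 1, 2 and 3 (log2 fold change −1.34, SE 0.20, edgeR adjusted p = 0.0656). Every Smyd3 ASO tumour was under every control. Postn, a matrix protein of activated fibroblasts, averaged 557 ± 40.5 CPM in Smyd3 ASO tumours and 952 ± 208 CPM in controls (log2 fold change −0.77, SE 0.14, adjusted p = 0.091). Others that did not overlap included Col1a1, Col1a2, Fn1, Tagln, Snai1, Tgfb1i1 and Sparc. The ID genes, which bone morphogenetic proteins induce more than TGF-beta does, lay on both sides of 0, with Id1 at 0.39, Id2 at −0.07 and Id3 at 0.41 (adjusted p = 0.634, 0.93 and 0.7). Col1a1, Col1a2, Col3a1 and Postn are also in the fibroblast marker list, whose summed level was lower in all Smyd3 ASO tumours. These genes made up most of that sum, so it is not a measure separate from the targets. In control 1 they stood at 2240, 2430, 1730 and 798 CPM, with a list sum of 7400 CPM. Dcn, another gene of the marker list, overlapped between the arms. The part of fibroblast content in the result for the targets was not tested.

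Among genes of latency and activation, 13 of 17 were below 0 and 4 above it (median −0.29). In 3 of them (17.6%: Ltbp4, Emilin1 and Lrrc32) all Smyd3 ASO tumours lay below all controls, against 5.14% of all genes. Tgm2 of this list went the other way, averaging 310 ± 133 CPM in Smyd3 ASO tumours and 130 ± 37.3 CPM in controls. Its log2 fold change was 1.26 (SE 0.37). All Smyd3 ASO tumours but non-responder 1, at 152 CPM, lay above all controls for Tgm2. Ltbp4, which anchors latent TGF-beta1 in elastic matrix, stood at 162, 133, 176, 127 and 198 CPM in responders 1 and 3, the unmarked tumour and non-responders 1 and 2, against 358, 279 and 302 CPM in controls. The arms did not overlap, with a log2 fold change of −0.97 (SE 0.16, adjusted p = 0.0811). Emilin1, which in mice limits the processing of pro-TGF-beta, was at −0.87 (SE 0.18, adjusted p = 0.0941).

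Of the 6 tested secreted antagonists, Fstl3, which binds activin and keeps it from its receptors, averaged 14.1 ± 1.94 CPM in Smyd3 ASO tumours and 29.4 ± 8.14 CPM in controls (log2 fold change −1.06, SE 0.19, adjusted p = 0.0871), with no overlap. The median of this list was −0.02. Grem1, an antagonist of bone morphogenetic proteins, was at −1.13 (SE 0.66, adjusted p = 0.451), and non-responder 1 reached the control range. Nog, which encodes noggin, another such antagonist, was in contrast above all controls in all 5 Smyd3 ASO tumours. It averaged 0.933 ± 0.300 CPM in Smyd3 ASO tumours and 0.140 ± 0.132 CPM in controls (log2 fold change 2.68, SE 0.62, adjusted p = 0.106). Controls 1, 2 and 3 held only 7, 1 and 2 Nog reads. Among the other ligands the median was −0.29 over 8 genes, with Bmp7 at −0.49 and Inha, the inhibin alpha subunit, at −0.60 (adjusted p = 0.281 and 0.299). Bmp4, a bone morphogenetic protein at low levels here, went the other way, with 1.46 ± 0.765 CPM in Smyd3 ASO tumours and 0.439 ± 0.119 CPM in controls (log2 fold change 1.72, SE 0.52, adjusted p = 0.183), and all 5 tumours above all controls. Mstn had no read in any control tumour and from 1 to 103 reads in Smyd3 ASO tumours. Placing Mstn at its bound leaves the median of the other ligands as it is.

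Among other receptors and co-receptors the median was −0.15 over 11 genes, and among other SMADs −0.25 over 5. Acvr1b, a type I activin receptor, stood at 131, 112, 142, 114 and 136 CPM in responders 1 and 3, the unmarked tumour and non-responders 1 and 2, against 194, 151 and 197 CPM in controls (log2 fold change −0.51, SE 0.13, adjusted p = 0.127), and like Tgfbr2 it did not overlap. Acvr2b was at −0.41 (adjusted p = 0.538). Smad4, the common partner of the activated SMADs, averaged 78.1 ± 7.53 CPM in Smyd3 ASO tumours and 97 ± 5.83 CPM in controls, and Smad1, which acts downstream of bone morphogenetic proteins, 64.3 ± 5.05 CPM in Smyd3 ASO tumours and 76.5 ± 6.03 CPM in controls (adjusted p = 0.205 and 0.269). Neither overlapped between the arms.

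Among intracellular regulators the median was −0.12 over 15 genes. Bambi, a decoy receptor without a kinase domain, stood at 44.4, 67.3, 63.3, 70.3 and 96.0 CPM in responders 1 and 3, the unmarked tumour and non-responders 1 and 2, against 44.2, 13.2 and 33.2 CPM in controls, the largest positive difference of this list at 1.17 (SE 0.38, adjusted p = 0.206). Responder 1 and control 1 were nearly level. Smurf1, a ubiquitin ligase that works with SMAD7 at the receptor, was at −0.49 (SE 0.15, adjusted p = 0.181).

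**Figure D5:**
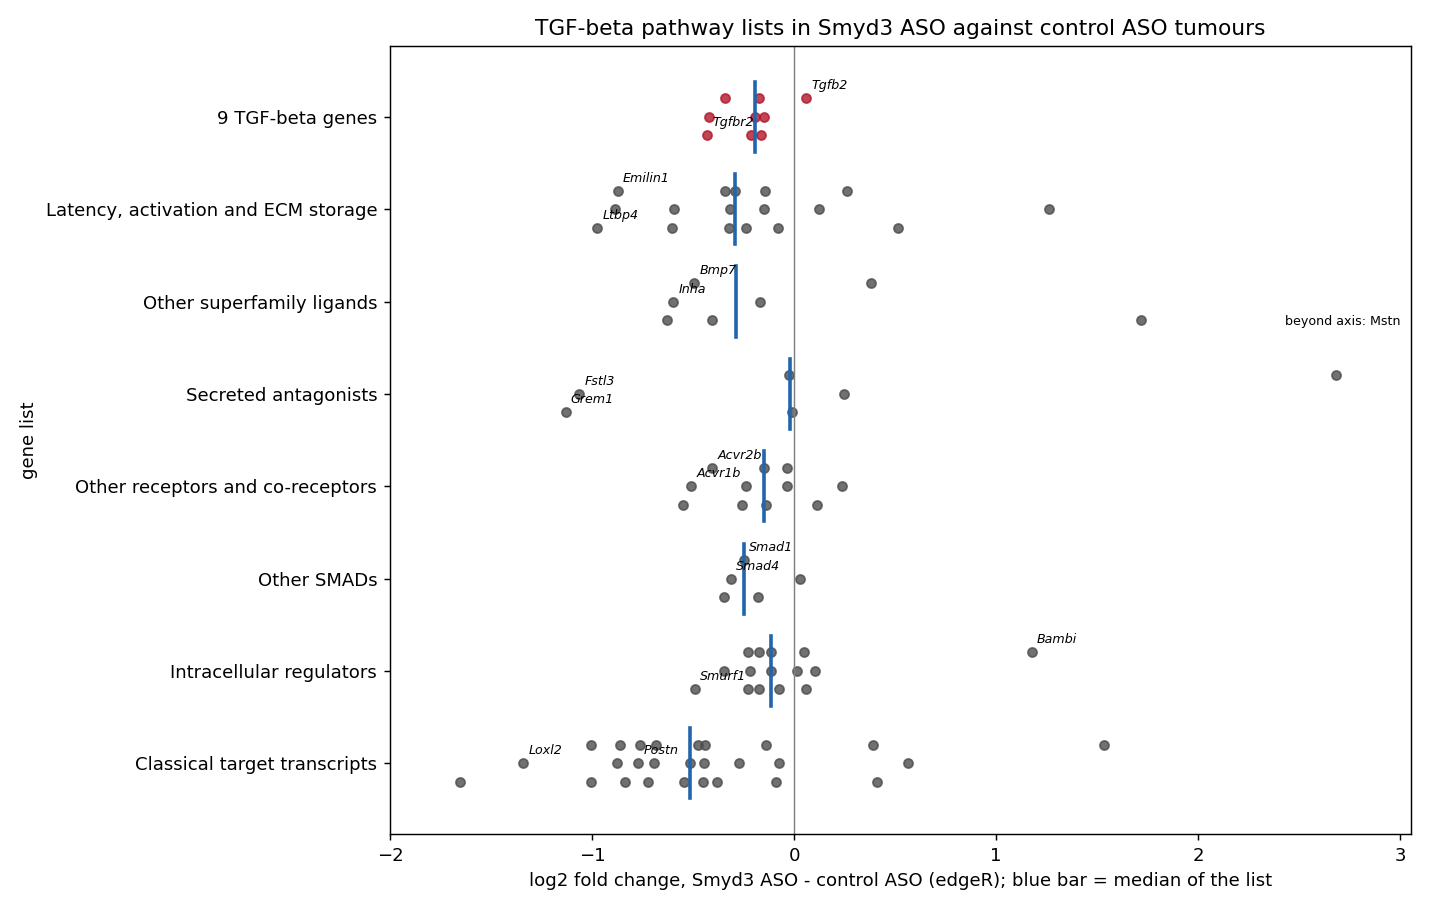
Log2 fold change between Smyd3 ASO and control ASO tumours (x axis) of the 9 genes, in red, and of the 89 tested genes of 7 pathway lists, in grey, with a blue bar at each list's median; Mstn lies beyond the axis. The bar of the classical targets (−0.51) lies farthest left and that of the secreted antagonists (−0.02) nearest 0.

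Within the Smyd3 ASO arm the lists did not shift as one between the response groups. Over the 89 genes the median was −0.03, 5 had an unadjusted p below 0.05 with a lower level in responders, 2 with a higher level (8.49% of all genes in either direction), and none was called. Among the targets 14 were above 0 and 13 below, with Tpm1, a tropomyosin that muscle also makes in quantity, at 1.02 (SE 0.34) and Cdkn1a, a cell cycle inhibitor, at −0.63 (SE 0.28; edgeR adjusted p = 0.54 and 0.595). The higher muscle marker sums of responders, given above, stand beside Tpm1, and their part in its value was not tested. Bmp2 was at −1.23 (SE 0.43, adjusted p = 0.543), with 21.9 and 24.6 CPM in responders, against 63.0 and 46.3 CPM in non-responders. Among receptors, Acvr2a was at −0.49 (SE 0.13, adjusted p = 0.505) and the co-receptor Tgfbr3 at 1.0 (SE 0.35, adjusted p = 0.544). Smad6, the inhibitory SMAD of the bone morphogenetic protein branch, was at −0.86 and Zfyve9, which brings SMADs to the receptor, at −0.54 (adjusted p = 0.57 and 0.521). Tgm2 in the latency list was at 0.90 and Itgb6 at −0.57 (adjusted p = 0.604 and 0.595).

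Against the shared controls, responders had 70 of 89 list genes below 0 (median −0.37) and non-responders 68 (median −0.30). EdgeR called none of them in either group. DESeq2 called 13 in responders and 8 in non-responders, beside 1153 and 339 of all 16911 genes. Without control 2 these medians were −0.21 and −0.14. The target median was −0.47 in responders and −0.76 in non-responders. Thbs1, which can activate latent TGF-beta, had 553 and 447 CPM in responders, 596 and 780 CPM in the non-responder tumours and 850, 1380 and 1030 CPM in controls. Its log2 fold change was −1.12 in responders (SE 0.25, edgeR adjusted p = 0.0856). Tagln, an actin-binding protein of contractile cells, was at −1.16 in responders (SE 0.25, adjusted p = 0.0844) and −1.01 in non-responders (SE 0.25, adjusted p = 0.367). Tgfb1i1, a focal adhesion adaptor induced by TGF-beta1, was at −0.74 in responders (SE 0.24, adjusted p = 0.191) and −0.97 in non-responders (SE 0.24, adjusted p = 0.367).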

How the data were processed

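RNA from 8 snap-frozen tumours was sequenced as polyA-selected, stranded libraries, per the labels' protocols. The authors deposited 1 table of expected counts per gene, not normalized; per the submitters' processing notes, the tools include STAR 2.7.0f and RSEM 1.3.0 on mm10 (with bcl2fastq 2.17 and cutadapt 1.18 also named), and the strand setting of the counting is not given in the sources used here. Expected counts were rounded to whole numbers and analysed with edgeR 4.0.16 (R 4.3.3). Genes were kept when at least 2 libraries reached the CPM of 10 reads in the median library (0.424 CPM) and the total was at least 15, which left 16911 of 55450 genes with 99.93% of the reads. The quasi-likelihood test (robust, TMM) was fitted on all 8 tumours, with arm as the only term for Smyd3 ASO against control ASO, and with 4 groups for the responder and non-responder contrasts. P-values were adjusted by Benjamini-Hochberg over all genes tested (threshold 0.05), two-sided. Adjusted p-values in the text are edgeR's unless DESeq2 (1.42.0) is named. Single genes and ligand shares were also tested between arms by exact permutation of the 56 arrangements. Gene positions and lengths came from GENCODE M21, which matched all 55450 identifiers, and promoters from RefSeq (GRCm38.p6). The script was tested on simulated data.

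All 9 genes are named in every comparison; from each pathway list, none of whose genes was called, the 2 with the smallest p were named, leaving out genes whose mean log2 CPM was below 0, and for each of the 9 genes the 2 closest by Pearson r of log2 CPM (prior count 2). Some genes that these rules pick are not reported here. Genes outside this rule were named after their values were seen, as was the ratio of the receptors. They were the lists of genes that did not overlap, Bmp4, Nog, Mstn, Id1, Id2, Id3, Itgae, Lrrc32 and the not tested genes. The same holds for Tpm1 and Tgm2 between the arms, Tagln in non-responders and Tgfb1i1 in responders. The 9 genes and all lists were chosen with earlier results of these data known. Alternatives were other size factors, no filter, DESeq2, limma voom (limma 3.58.1), a non-robust fit, subsets of tumours, a replicate block, and each tumour left out in turn. For the 9 genes, counting error is small beside the spread between tumours at these depths. That does not hold for Nog, Bmp4 and Mstn, which had few or no reads in the controls.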

Additional observations from a re-analysis of the deposited data

Results flagged for a closer look

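Of 41 genes examined in the 5 Smyd3 ASO tumours (the 9 genes and the genes named from the lists), 1 had a tumour far from the others. Grem1 was at 14.3 CPM in non-responder 1, while the next highest of the 5 was at 4.99 CPM; the gap was 0.727 of the whole range, above the critical value of 0.71 for 5 samples. Chance flags about 1 in 20 such groups, so 1 among 41 is no pattern.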

How the results depend on the processing

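The lack of a call for any of the 9 genes held under every alternative except DESeq2, which called Tgfbr2 in the arm comparison and in non-responders against controls; over the 9 genes and 4 comparisons, 473 of 504 alternative values kept their direction and their side of the threshold. Tgfbr2 kept its direction against controls in every alternative run. The number of genes called over the whole table did not hold still. In the arm comparison (0 of 16911) it was 52 with no filter, 1053 with DESeq2, 286 with the 6 numbered tumours alone and 25 when the mean of responders and non-responders was set against controls, and with 1 tumour left out it ran from 0 to 258 (258 without non-responder 1 and 5 without control 1). Among the pathway lists the count was 3, 19, 2 and 0 in those alternatives and 0 to 4 with 1 tumour left out. The cause of these shifts was not tested.

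With the replicate number as a block over the 6 numbered tumours, 245 genes were called, 3 of them in the pathway lists (Tgm2, Tagln and Loxl2) and none of the 9. In that fit the unadjusted edgeR p was 0.00495 for Inhba, 0.00873 for Tgfbr1, 0.0157 for Tgfbr2 and 0.0461 for Smad7. Their edgeR adjusted p-values were 0.121, 0.155, 0.198 and 0.312. Without the block, the same tumours gave unadjusted edgeR p-values of 0.367, 0.102, 0.00935 and 0.392. The SE of Inhba was 0.0987 with the block and 0.494 without it. Over all genes compared, tumours with the same number did not deviate together (correlations of −0.0411, 0.000837 and 0.102 over 14364 genes, and 2 of the 3 Smyd3 ASO tumours correlated better with another number), so the numbers were not taken as pairs. Among the 9 genes, control 2 and the unmarked tumour, both numbered 2, were the 2 highest for Tgfb1, Tgfb3, Inhba, Smad7 and Tgfbi. The labels do not say whether equal numbers mark pairs.

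Between responders and non-responders (0 genes), the count was 7 with no filter, 225 with DESeq2 and 0 to 21 with 1 tumour left out (21 without responder 1). Between responders and controls (280 genes), it was 499 with no filter, 1153 with DESeq2 and 135 with limma voom, with 6 and 13 pathway genes under the first 2 of these. Without control 1, control 3, responder 3, control 2, non-responder 2 or non-responder 1 it was 0, 6, 33, 107, 134 and 169, and the whole range with 1 tumour left out was 0 to 287, with 0 to 2 pathway genes. Between non-responders and controls (0 genes), no filter gave 32 and DESeq2 339, 8 of them in the lists. The pathway median ran from −0.40 to −0.14 in non-responders and from −0.42 to −0.21 in responders with 1 tumour left out, nearest 0 without control 2 in both.

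Directions of fold changes near 0 turned. Tgfb2 between the arms (0.06) was −0.061 under the block, −0.094 in the 6 numbered tumours and −0.035 with the mean of the response groups. With 1 tumour left out, arm fold changes ran from −0.37 to 0.054 for Tgfb1, −0.13 to 0.45 for Tgfb2, −0.34 to 0.14 for Tgfb3, −0.67 to 0.18 for Inhba, −0.45 to 0.10 for Smad7 and −0.28 to 0.076 for Tgfbi, the upper end in each case without control 2. Tgfbr1 kept to −0.47 to −0.16. Differences of mean log2 CPM, as used in the permutation tests, likewise ran from −0.36 to 0.042, −0.10 to 0.38, −0.30 to 0.10, −0.60 to 0.083, −0.46 to 0.071 and −0.27 to 0.056, while Smad3 kept to −0.25 to −0.13 and Tgfbr2 to −0.48 to −0.41, with exact permutation p up to 0.238 for Smad3 and 0.0571 for Tgfbr2, where fewer tumours also raise the smallest possible p. Between responders and non-responders the ranges that crossed 0 were −0.47 to 0.048 (Tgfb3), −0.034 to 0.26 (Tgfbr2), −0.012 to 0.11 (Smad3) and −0.15 to 0.18 (Tgfbi). Between responders and controls they were −0.52 to 0.058 (Tgfb2) and −0.36 to 0.044 (Tgfbi). Between non-responders and controls they were −0.33 to 0.094 (Tgfb1), −0.20 to 0.65 (Tgfb2), −0.41 to 0.17 (Tgfb3), −0.59 to 0.26 (Inhba), −0.33 to 0.23 (Smad7) and −0.34 to 0.023 (Tgfbi). Arm differences in ligand share ran from −1.42 to 1.95 percentage points for Tgfb1 and −2.63 to 0.35 for Tgfb3. The limits are the few tumours, 2 or 3 in most groups, the weight of control 2, and muscle and fibroblast RNA that moved with the arms.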
